A study of Mus musculus with 12 samples.

Results

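Microglia are the resident macrophages of the brain, and 9 of their best known genes were followed here through 12 RNA-seq libraries of mouse midbrain. The 9 were taken by symbol from the 24346 genes of the deposited tables: P2ry12, Tmem119, Cx3cr1 and Csf1r, which mark microglial identity, and Ctss, Trem2, Tyrobp, Apoe and Cst7, which belong to the phagocytic, lysosomal and lipid-handling side of microglial activation. All 9 passed the filter on low counts. The mice were C57BL/6, and the 4 groups of 3 libraries were synuclein at 7 weeks, saline at 7 weeks, synuclein at 12 weeks and saline at 12 weeks. Synuclein stands for an injection, into the substantia nigra on both sides, of G51D fibrils of α-synuclein formed beforehand (20 µg at 5 µg/µL), G51D being a familial Parkinson's disease mutation. The saline groups had the same injection without fibrils. Cells carrying the fluorescent protein hKO1, by which the study marks dopaminergic neurons, were sorted by FACS from dissected midbrain. The labels call the cells only neural cells and give neither the promoter that drives hKO1 nor the age of the mice.

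In the healthy brain, microglia sense nucleotides through P2RY12 and the neuronal chemokine fractalkine through CX3CR1, and they depend on signals through CSF1R to survive. When microglia meet damaged cells, lipid or protein aggregates, TREM2 signals through its adaptor TYROBP. In mouse models of neurodegeneration this pathway is known for a state in which P2ry12, Tmem119 and Cx3cr1 go down while Apoe, Cst7 and lysosomal genes go up. Apoe is not specific to microglia, since astrocytes make much of the brain's APOE.

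The libraries held 2506730 to 5533321 assigned fragments. The smallest total belonged to replicate 3 of synuclein at 7 weeks. The sorted material was a mixture of RNA from several cell types: summed levels in CPM (counts relative to the library total, scaled by the trimmed mean of M-values) were 636.6 to 2686 over 12 dopaminergic neuron genes, 18693 to 51914 over 12 oligodendrocyte genes and 9667 to 23336 over 10 endothelial genes. The share of microglia in the sorted material is not known, and in such bulk samples fewer cells of a type and less RNA per cell cannot be told apart. Of synuclein at 12 weeks, replicate 2 stood apart from the other libraries on the first principal component and replicate 1 on the second. Replicate 2 had 17432 genes with a fragment, against 19987 to 21164 in the other 11 libraries. The labels do not say whether replicates come from different animals, so the p-values reflect the variation among these libraries, which may be technical.

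Among the identity genes, P2ry12 and Tmem119 were close to the limit of detection. Levels can be compared between genes only per length, in FPKM (fragments relative to transcript length and library total), and over the 12 libraries Tmem119 averaged 1.35 ± 1.53 FPKM, P2ry12 1.68 ± 1.82 FPKM, Cx3cr1 3.29 ± 1.71 FPKM, Cst7 3.68 ± 5.04 FPKM, Trem2 4.63 ± 5.32 FPKM, Csf1r 6.84 ± 4.53 FPKM, Ctss 24.5 ± 20.9 FPKM, Tyrobp 35.4 ± 44.3 FPKM and Apoe 1885 ± 446 FPKM (SD, n = 12). Neighbours in this order overlapped in their range over libraries, except that the lowest Apoe library, at 1193 FPKM, lay above the highest Tyrobp library, at 168 FPKM. Behind these levels stood 87121 fragments of Apoe over all libraries, 1224 of Ctss, 1084 of Csf1r, 553 of Cx3cr1 and 508 of Tyrobp. Trem2 had 169 fragments, P2ry12 152, Tmem119 127 and Cst7 116. In a single library 3 fragments, the most that a count of 0 allows, corresponded to 0.59 to 1.11 CPM. This limit covers counting error only. Tmem119 had no fragment in 4 libraries, and P2ry12 and Trem2 had none in 2 each.

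P2ry12, the purinergic receptor that guides microglial processes to sites of injury, had 6.65, 0.572 and 13.7 CPM in the synuclein libraries at 7 weeks (replicates 1, 2 and 3), against 1.72, 2.60 and 5.17 CPM in the saline libraries. At 12 weeks it had 0, 0 and 1.42 CPM after synuclein, against 5.51, 0.855 and 6.60 CPM after saline. Of the synuclein libraries at 12 weeks only replicate 3 held P2ry12 fragments, 6 in all, and it lay above the lowest saline library, so the groups overlapped at both times. P2ry12 lies on chromosome 3 (59006978 to 59344256 in the deposited files), in a locus that the files share with 7 other gene names, and GENCODE places it inside the span of Med12l. The strand used in counting is not stated, so its reads cannot be told apart from those of overlapping genes.

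Tmem119, a transmembrane protein used to tell microglia from other macrophages (chromosome 5, 113793729 to 113800352), had 0.289, 5.72 and 4.86 CPM after synuclein at 7 weeks, against 0, 0.288 and 7.17 CPM after saline. By 12 weeks it stood at 0, 0 and 4.53 CPM after synuclein, against 1.74, 0 and 6.89 CPM after saline. In 3 of the 4 groups replicate 3 alone carried most of the signal: 100% of the synuclein sum at 12 weeks, 96.1% of the saline sum at 7 weeks and 79.8% of the saline sum at 12 weeks.

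Cx3cr1, the fractalkine receptor (chromosome 9, 120048683 to 120068296), was present in every library. Its locus in the files overlaps no other GENCODE gene, while the longer span GENCODE gives it overlaps 9. It had 5.21, 13.5 and 17.1 CPM after synuclein at 7 weeks, against 10.02, 11.5 and 23.5 CPM after saline. At 12 weeks the values were 6.21, 8.50 and 7.93 CPM after synuclein, against 7.25, 10.3 and 24.1 CPM after saline. The highest library of all 3 groups other than synuclein at 12 weeks was replicate 3, and the treatments overlapped at both times. Of the 9 genes, Cx3cr1 was the one with a lower mean after synuclein than after saline at both times: 11.9 ± 6.11 against 15.0 ± 7.40 CPM at 7 weeks and 7.55 ± 1.2 against 13.9 ± 9 CPM at 12 weeks (SD, n = 3 each).

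Csf1r, the receptor for the survival factors CSF1 and IL-34 (chromosome 18, 61105572 to 61131139), had 41.1, 15.7 and 67.4 CPM after synuclein at 7 weeks, against 34.1, 14.4 and 23.5 CPM after saline. At 12 weeks its levels were 17.2, 4.11 and 18.1 CPM after synuclein, against 22.6, 13.7 and 41.6 CPM after saline. Its lowest library was replicate 2 of synuclein at 12 weeks, one of the libraries that stood apart. Its locus in the files holds a microRNA gene, and its longer span in GENCODE also overlaps Hmgxb3, and reads of overlapping genes could not be separated without strand.

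Trem2 and Tyrobp, the receptor and its adaptor, had their highest values in the same library. Trem2 (chromosome 17, 48346401 to 48352276) had 6.07, 0.286 and 17.1 CPM after synuclein at 7 weeks, against 4.29, 0 and 3.44 CPM after saline. At 12 weeks Trem2 had 1.69, 0 and 2.55 CPM after synuclein, against 4.93, 1.71 and 9.19 CPM after saline. The 7-week synuclein group spread widely, with replicate 3 above all other libraries and replicate 2 at a single fragment, while the 2 libraries at 0 belonged to other groups. Tyrobp, which carries the signal of TREM2 and other myeloid receptors into the cell (chromosome 7, 30413788 to 30417579), had 22.3, 6.58 and 61.4 CPM after synuclein at 7 weeks, against 11.5, 9.52 and 7.46 CPM after saline. At 12 weeks Tyrobp had 5.08, 1.37 and 12.2 CPM after synuclein, against 8.70, 4.84 and 4.59 CPM after saline. Replicate 2 of synuclein at 7 weeks lay below all 3 saline libraries of that time, so the groups overlapped.

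Ctss encodes cathepsin S, a lysosomal protease of macrophages and microglia (chromosome 3, 95526786 to 95556405, a span that also holds a pseudogene, Hmgb1-ps5). It had 43.4, 14.02 and 103 CPM after synuclein at 7 weeks, against 22.6, 17.0 and 30.7 CPM after saline. At 12 weeks it had 15.8, 21.7 and 28.9 CPM after synuclein, against 13.6, 13.1 and 25.8 CPM after saline. Cst7 encodes cystatin F, an inhibitor of lysosomal cysteine proteases that is very low in resting microglia (chromosome 2, 150570415 to 150578944). It had 1.45, 1.43 and 14.9 CPM after synuclein at 7 weeks, against 0.286, 2.31 and 1.44 CPM after saline. At 12 weeks Cst7 had 3.39, 0.274 and 0.850 CPM after synuclein, against 1.74, 1.43 and 6.03 CPM after saline. Without replicate 3, both synuclein libraries at 7 weeks lay inside the saline range for Cst7.

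Apoe, the lipid carrier (chromosome 7, 19696244 to 19699188), stood apart from the other 8 in level and in pattern. It had 1400, 1563 and 2066 CPM after synuclein at 7 weeks, against 1246, 1724 and 2031 CPM after saline. By 12 weeks it stood at 1974, 2239 and 2249 CPM after synuclein, against 2132, 1928 and 2990 CPM after saline. The treatments overlapped at both times, and the spread between replicates was small relative to the level. Apoe made up 87.3% to 98.4% of the CPM of the 9 genes in a library, so any sum that includes it is a sum of Apoe.

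The 250 bases upstream of the gene start are shown for 4 of these genes because Ctss, Trem2 and Cst7 shared their highest library and Apoe did not. They come from RefSeq on GRCm38.p6, written 5′ to 3′ on the strand of the gene, and RefSeq windows were matched for 6 of the 9 genes. Capitals mark the motif GAGGAA, a form of the site bound by PU.1, the transcription factor of the myeloid lineage, or its reverse complement TTCCTC. Other forms of the site and other motifs were not searched, so a window without a match may still hold a site for PU.1.
Trem2, chr17:48346151-48346400, plus strand: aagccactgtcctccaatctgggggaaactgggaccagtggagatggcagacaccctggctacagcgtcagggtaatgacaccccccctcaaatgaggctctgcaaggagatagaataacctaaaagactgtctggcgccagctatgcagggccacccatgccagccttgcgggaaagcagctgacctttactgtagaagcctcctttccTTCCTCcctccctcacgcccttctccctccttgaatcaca
Ctss, chr3:95526536-95526785, plus strand: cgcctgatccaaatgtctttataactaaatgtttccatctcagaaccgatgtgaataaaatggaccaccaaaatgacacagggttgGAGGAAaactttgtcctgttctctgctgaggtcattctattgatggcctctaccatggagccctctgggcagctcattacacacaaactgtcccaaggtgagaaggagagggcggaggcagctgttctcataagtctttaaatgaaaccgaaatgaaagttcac
Cst7, chr2:150570165-150570414, plus strand: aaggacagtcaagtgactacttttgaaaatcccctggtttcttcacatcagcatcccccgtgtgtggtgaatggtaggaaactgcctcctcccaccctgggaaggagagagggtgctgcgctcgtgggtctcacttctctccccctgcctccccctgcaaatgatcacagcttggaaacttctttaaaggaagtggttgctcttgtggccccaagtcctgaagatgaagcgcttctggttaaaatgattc
Apoe, chr7:19699189-19699438, minus strand: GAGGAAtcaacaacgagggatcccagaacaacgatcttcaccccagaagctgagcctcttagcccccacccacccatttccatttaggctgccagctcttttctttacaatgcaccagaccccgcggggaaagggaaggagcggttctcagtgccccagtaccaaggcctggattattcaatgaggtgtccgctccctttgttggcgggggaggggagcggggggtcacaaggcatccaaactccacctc
Trem2 and Ctss hold 1 exact match each and Cst7 none in this window. Apoe holds 1 at the far end of the window shown. P2ry12 was also highest in replicate 3 of synuclein at 7 weeks. Its window and that of Cx3cr1 held no match and are not shown. The bases that follow the P2ry12 window were found in no GENCODE transcript of that gene, unlike those of the other windows. The position of the P2ry12 window is therefore less certain, though it is counted here. Counting all windows, 4 of 8 windows and 3 of 6 genes held the motif, beside 23.3% of 32851 windows over all genes. Apoe held it in more than 1 of its windows. These counts are a description of letters and not of binding. Spi1, the gene of PU.1 itself, averaged 1.74 CPM and did not pass the filter on low counts.

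**Figure D1:**
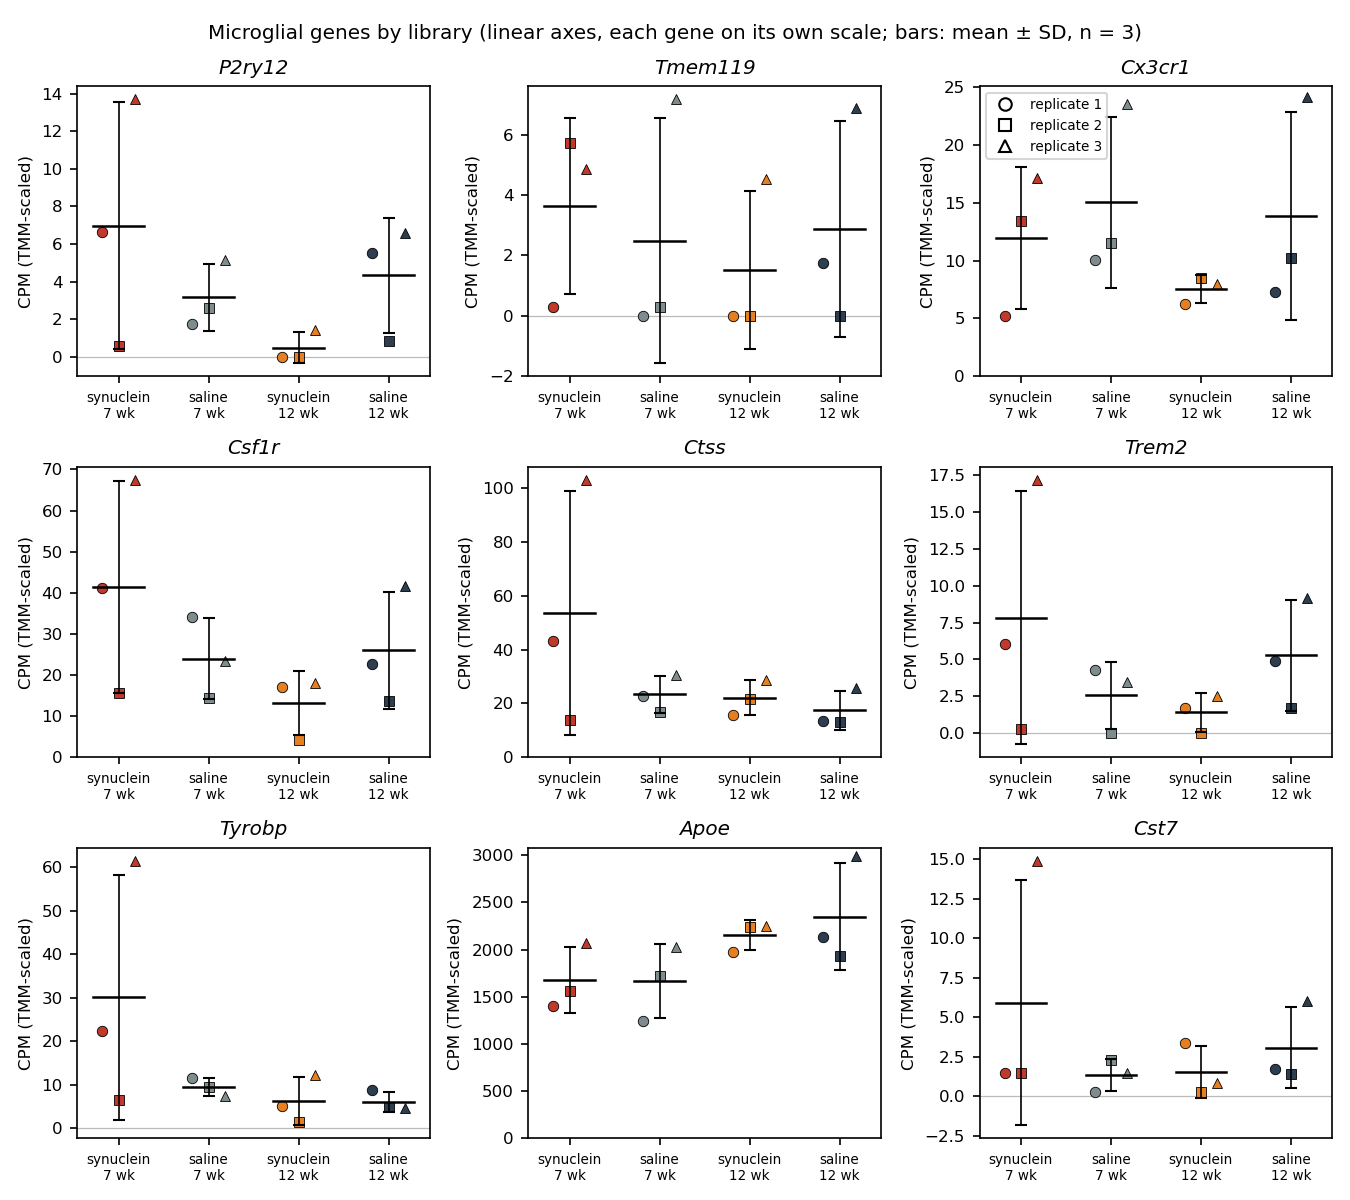
CPM (TMM-scaled, linear axis, own scale for each gene) of the 9 genes in each of the 12 libraries, by group. Points are libraries, with a marker shape per replicate, and bars are the mean ± SD (n = 3). Replicate 3 of synuclein at 7 weeks is the highest point for P2ry12, Csf1r, Ctss, Trem2, Tyrobp and Cst7, while Apoe shows no such point.

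How much of each gene rested on a single library was read from its share of the CPM summed over the 12 libraries, where an even spread would give 8.33%. Replicate 3 of synuclein at 7 weeks was the highest library for 6 of the 9 genes and carried 41.9% of Cst7, 39.5% of Tyrobp, 33.4% of Trem2, 30.6% of P2ry12, 29.5% of Ctss and 21.5% of Csf1r. The highest library carried 22.8% of Tmem119 (replicate 3 of saline at 7 weeks), 16.6% of Cx3cr1 and 12.7% of Apoe (both replicate 3 of saline at 12 weeks). Over all 17380 genes tested the median share of the highest library was 14.7%, and 7.03% of them were highest in replicate 3 of synuclein at 7 weeks. Within groups, 8 of the 9 genes were highest in replicate 3 of synuclein at 7 weeks (32.9% of all genes tested), 8 in replicate 3 of saline at 12 weeks (30% of all genes tested) and 7 in replicate 3 of synuclein at 12 weeks (30.4% of all genes tested). In saline at 7 weeks they were more divided, with 5 highest in replicate 3 (32.4% of all genes tested), 3 in replicate 1 and 1 in replicate 2.

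**Figure D2:**
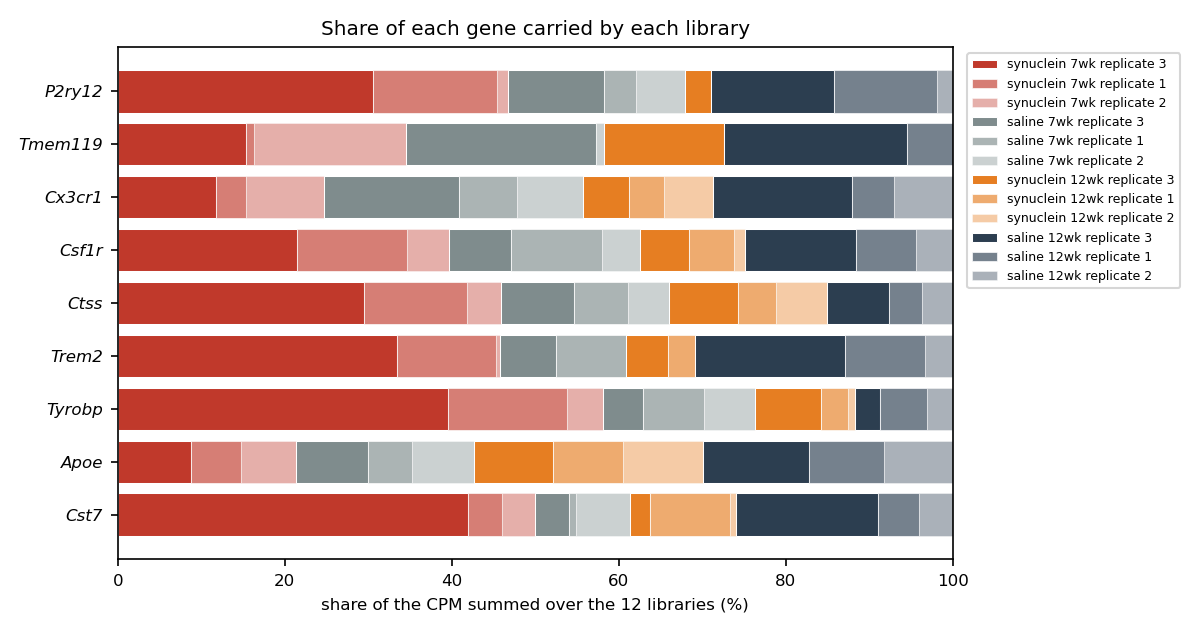
Share (%) of each gene's CPM, summed over 12 libraries, that each library carried. Colours stand for groups and shades for replicates. The leftmost segment, replicate 3 of synuclein at 7 weeks, runs from 8.77% for Apoe to 41.9% for Cst7.

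The same library was also the richest in other genes. The summed level of 18 general microglial and myeloid genes was 550.2 CPM there, 23.1% of its 12-library sum, and 12 of the 17 tested genes of that list were highest in it. Among them C1qb, a chain of complement C1q, had 142 CPM there against 5.92 to 45.3 CPM in the other libraries, and Cd68, a lysosomal protein of phagocytes, had 48.9 CPM against 0 to 13.5 CPM. Genes of pericytes and smooth muscle summed to 936.5 CPM in it and to 123.1 to 305.2 CPM elsewhere, with Acta2, smooth muscle actin, at 469 CPM against 3.18 to 76.5 CPM. The other microglial lists were less often highest in it, with 2 of 11 other identity genes and 5 of 21 disease-associated genes tested. It was highest for 4 of 8 pericyte and smooth muscle genes, 2 of 10 perivascular macrophage genes, 0 of 12 oligodendrocyte genes and 0 of 12 dopaminergic neuron genes. Dopaminergic neuron genes summed to 779.7 CPM in it, against 1461 to 2686 CPM in the other 7-week libraries and 636.6 to 1219 CPM at 12 weeks. General neuron genes summed to 754.2 CPM in it, against 924.4 to 1884 CPM in the other 7-week libraries. The part of these genes, of the mix of sorted cells and of the library's low total in the microglial values was not tested.

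What synuclein fibrils change at 7 weeks is the first comparison of the design. None of the 17380 genes was called in it (0% at an adjusted p under 0.05), and 1.64% had an unadjusted p under 0.05 in edgeR's quasi-likelihood test. Of the 9 microglial genes 8 had a log2 fold above 0, beside 51.2% of all genes tested, and their median log2 fold was 1.13, beside 0.01. Tyrobp had a log2 fold of 1.66 ± 0.75 (SE, 95% interval 0.08 to 3.24, adjusted p = 1 in edgeR). Ctss had a log2 fold of 1.19 ± 0.54 (SE, 95% interval 0.05 to 2.33, adjusted p = 1 in edgeR). These were the 2 of the 9 under an unadjusted p of 0.05. The log2 folds of Cst7 (2.11 ± 1.18), Trem2 (1.59 ± 1.26), P2ry12 (1.13 ± 1.13), Csf1r (0.79 ± 0.58), Tmem119 (0.54 ± 1.60) and Cx3cr1 (−0.33 ± 0.61) had intervals that held 0. That of Apoe was 0.01 ± 0.25, with an interval from −0.51 to 0.52.

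These folds turned on 1 library. Without replicate 3 of synuclein at 7 weeks, the log2 fold was 0.59 for Tyrobp, 0.28 for Ctss and for Trem2, 0.23 for Csf1r, 0.18 for P2ry12 and 0.09 for Cst7. Cx3cr1 then had −0.69, Apoe −0.18 and Tmem119 0.26. The median of the 9 became 0.23, and none had an unadjusted p under 0.05.

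At 12 weeks the folds ran mostly the other way, and again no gene was called in edgeR (0%, with 5.57% of genes at an unadjusted p under 0.05). Of the 9 microglial genes 7 had a log2 fold below 0, beside 52.7% of all genes tested, with a median of −0.92 beside −0.04. P2ry12 had a log2 fold of −3.11 ± 1.31 (−5.87 to −0.35, adjusted p = 0.887 in edgeR), from 6 fragments in the synuclein group against 43 in the saline group, and was the 1 of the 9 under an unadjusted p of 0.05. All 4 identity genes were below 0, with Csf1r at −0.98 ± 0.59, Tmem119 at −0.92 ± 1.64 and Cx3cr1 at −0.88 ± 0.62, each with an interval that held 0. Of the activation genes, Trem2 had −1.88 ± 1.31, Cst7 −1.01 ± 1.16, Apoe −0.13 ± 0.25, Tyrobp 0.04 ± 0.76 and Ctss 0.34 ± 0.54, and here too every interval held 0.

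Replicate 3 of saline at 12 weeks, the highest library of its group for 8 of the 9 genes, weighed on these values. Without it, the log2 fold was −2.65 for P2ry12, −1.19 for Trem2, −0.45 for Csf1r, −0.20 for Cx3cr1, −0.06 for Cst7 and 0.80 for Tmem119. Ctss then had 0.74, Apoe 0.10 and Tyrobp −0.11, and the median of the 9 was −0.11. The P2ry12 fold depended more on the other group. Replicate 3 of synuclein at 12 weeks held all P2ry12 fragments of its group. The fitted log2 fold without it was −6.93, a value set against a group at 0 that is no bound, and in limma on log2(FPKM + 1) with all libraries it was −1.15. Without replicates 1 and 2 of synuclein at 12 weeks, which stood apart, it was −1.58, the median of the 9 was −0.51 and none of the 9 had an unadjusted p under 0.05.

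**Figure D3:**
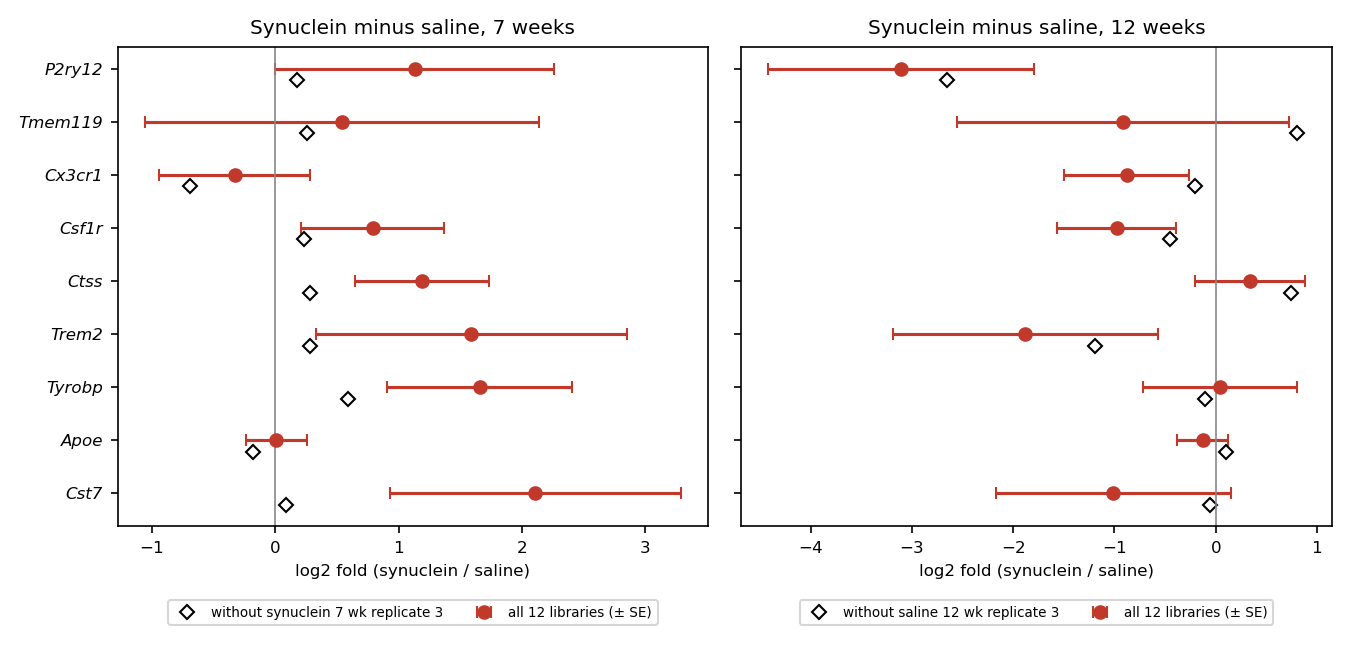
Log2 folds (synuclein over saline) of the 9 genes at 7 weeks (left) and 12 weeks (right). Filled points are edgeR estimates from all 12 libraries ± SE, and open diamonds are estimates without the named library. At 7 weeks the diamonds lie between −0.69 and 0.59. At 12 weeks all but those of P2ry12 and Trem2 lie between −0.45 and 0.80.

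Whether the synuclein effect itself differed between the times was tested as an interaction. All 9 differences, 12 minus 7 weeks, were below 0, beside 52.6% of all genes tested, with a median of −1.63 beside −0.05. No gene was called in edgeR (0%, with 4.49% at an unadjusted p under 0.05). P2ry12 had a difference in log2 fold of −4.24 ± 1.73 (adjusted p = 0.952 in edgeR) and Csf1r of −1.77 ± 0.83 (adjusted p = 0.952 in edgeR). These 2 had an unadjusted p under 0.05. The others were Trem2 at −3.47 ± 1.82, Cst7 at −3.12 ± 1.65, Tyrobp at −1.63 ± 1.07, Tmem119 at −1.45 ± 2.29, Ctss at −0.85 ± 0.76, Cx3cr1 at −0.54 ± 0.86 and Apoe at −0.13 ± 0.35. Without replicate 3 of synuclein at 7 weeks, 7 of the 9 were below 0 with a median of −1.09. Without replicate 3 of saline at 12 weeks, 6 were, with a median of −1.26. Leaving out both libraries, in a choice made after the values had been seen, the median was −0.18 over the 8 genes other than Cst7, which then missed the filter on low counts. In none of the 3 cases did any of the 9 have a call, and in the first 2 none had an unadjusted p under 0.05.

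Time was compared within each treatment and over both. After synuclein, 12 against 7 weeks, 8 of the 9 genes were below 0, beside 54.2% of all genes tested, with a median log2 fold of −1.65 beside −0.06. No gene was called in edgeR (0%, with 7.58% at an unadjusted p under 0.05). Among the 9, Tyrobp had −2.27 ± 0.77 (adjusted p = 0.477 in edgeR), P2ry12 −3.80 ± 1.33 (adjusted p = 0.502), Csf1r −1.65 ± 0.60 (adjusted p = 0.523) and Ctss −1.27 ± 0.54 (adjusted p = 0.591), which were the 4 under an unadjusted p of 0.05. The others were Trem2 at −2.44 ± 1.32, Cst7 at −1.95 ± 1.16, Tmem119 at −1.25 ± 1.64, Cx3cr1 at −0.66 ± 0.62 and Apoe at 0.36 ± 0.25. Without replicate 3 of synuclein at 7 weeks the median was −0.95, with Tyrobp at −1.18, Csf1r at −1.08 and Ctss at −0.34, and none of the 9 had an unadjusted p under 0.05. After saline, the median over the 9 was 0.21 and no gene was called in edgeR (0%, with 7.42% at an unadjusted p under 0.05). The log2 folds were 1.17 ± 1.17 for Cst7, 1.02 ± 1.26 for Trem2, 0.50 ± 0.25 for Apoe, 0.45 ± 1.14 for P2ry12, 0.21 ± 1.60 for Tmem119, 0.11 ± 0.58 for Csf1r, −0.11 ± 0.61 for Cx3cr1, −0.42 ± 0.54 for Ctss and −0.65 ± 0.76 for Tyrobp. This comparison shares its libraries with the others, so the values stand side by side without a further test.

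Over both treatments, 12 against 7 weeks, edgeR called 0.834% of genes (94 higher and 51 lower, with 9.82% at an unadjusted p under 0.05), and none of the 9 microglial genes. Of the 9, 8 had a log2 fold below 0, beside 53% of all genes tested, and Apoe was the exception, with a log2 fold of 0.43 ± 0.17 (0.06 to 0.79, adjusted p = 0.38 in edgeR). Tyrobp had −1.46 ± 0.54 (adjusted p = 0.3) and Ctss −0.85 ± 0.38 (adjusted p = 0.464). These 3 had an unadjusted p under 0.05. The others were P2ry12 at −1.67 ± 0.86, Csf1r at −0.77 ± 0.42, Trem2 at −0.71 ± 0.89, Tmem119 at −0.52 ± 1.14, Cx3cr1 at −0.39 ± 0.43 and Cst7 at −0.39 ± 0.82. Leaving out replicate 3 of synuclein at 7 weeks, Ctss had −0.38, Tyrobp −0.92, Trem2 −0.05 and Cst7 0.62. In the same comparison 7 of 12 oligodendrocyte genes were called higher, and 2 of 12 dopaminergic neuron genes were called lower. Their part in the Apoe value was not tested. Leaving out 1 library at a time gave 24 to 214 calls over all genes, and none was made without replicates 1 and 2 of synuclein at 12 weeks.

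The balance between activation and identity genes was described as the summed CPM of Ctss, Trem2, Tyrobp and Cst7 over that of P2ry12, Tmem119, Cx3cr1 and Csf1r. Apoe was left out because of its level, a choice made after the values had been seen. The ratio was 1.38, 0.629 and 1.91 after synuclein at 7 weeks, against 0.844, 1 and 0.725 after saline. At 12 weeks it was 1.11, 1.85 and 1.39 after synuclein, against 0.781, 0.851 and 0.576 after saline. The groups overlapped at 7 weeks and did not at 12 weeks, where synuclein replicates 1 and 2 were libraries that stood apart. With 3 libraries per group, such a separation does not show an effect of treatment. On FPKM values the ratio at 12 weeks was 5.33, 6.58 and 6.14 after synuclein, against 3.80, 4.17 and 2.16 after saline. Behind the 12-week ratios stood sums of 23.4, 12.6 and 32.0 CPM of identity genes after synuclein, against 37.1, 24.8 and 79.2 CPM after saline, and of 26.0, 23.3 and 44.5 CPM of activation genes, against 29.0, 21.1 and 45.7 CPM after saline. The lowest, middle and highest identity sums were each lower after synuclein, though the groups overlapped, and the activation sums covered nearly the same range in both groups. Of the activation sums at 12 weeks, Ctss made up 15.8, 21.7 and 28.9 CPM after synuclein and 13.6, 13.1 and 25.8 CPM after saline. The 12-week log2 folds of Trem2 (−1.88) and Cst7 (−1.01) were below 0, and those of Tyrobp (0.04) and Ctss (0.34) above it. The words activation and identity name the gene lists, and the ratio does not measure an activation state of the cells. It is given as a description of these 12 libraries, with no test.

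**Figure D4:**
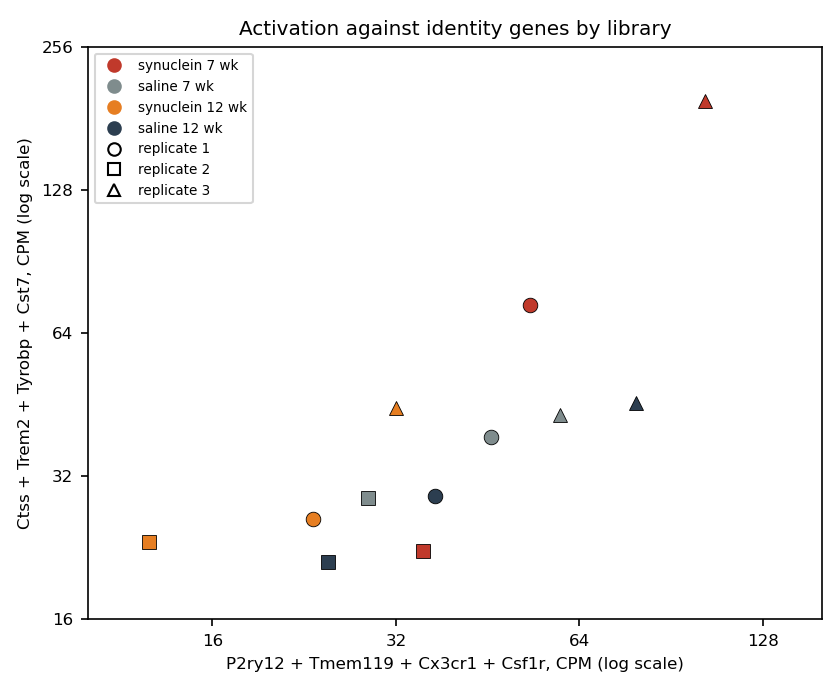
Summed CPM of 4 activation genes (vertical, log scale) against that of 4 identity genes (horizontal, log scale) in each library. Colours are groups and marker shapes are replicates. The 12-week synuclein libraries lie at 12.6 to 32.0 CPM on the horizontal axis and the 12-week saline libraries at 24.8 to 79.2 CPM, and their heights run from 21.1 to 45.7 CPM over both groups.

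How far the 9 genes varied together differed from pair to pair. Over the 12 libraries, with log2 CPM and as a description, Pearson's r ran from −0.31 (Tyrobp and Apoe) to 0.88 over the pairs of the 9 genes. It was 0.88 between Csf1r and Trem2, 0.81 between P2ry12 and Csf1r and 0.80 between Csf1r and Tyrobp. Cst7 and Ctss had an r of 0.51, which became −0.12 when replicate 3 of synuclein at 7 weeks was left out. Cx3cr1 and Tmem119 had an r of 0.68 with each other, but Cx3cr1 had 0.29 with Csf1r, 0.26 with Ctss, 0.23 with Trem2 and 0.03 with Tyrobp (−0.26 without that library), and Tmem119 had 0.28 with Tyrobp. Between Apoe and the summed level of the other 8, r was 0.05. Among the genes with a profile most like the mean of the 7 genes other than Apoe and Cst7, out of 13766 genes of at least 5 CPM on average, were Cst3 (r = 0.90), Cd68 (0.89), Nim1k (0.87), C1qb (0.86), Gmpr2 (0.86), Rnls (0.84) and Ndufv1 (0.84). Cst3 encodes cystatin C, a secreted inhibitor of cysteine proteases.

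Apoe had other neighbours. The genes most like it were Cdc42ep1 (r = 0.93), Gng11 (0.86), Tmem98 (0.84), Epb4.1l2 (0.83), Sh3tc2 (0.83), Scaf11 (0.82), Pacs2 (0.82) and Tmem205 (0.81), and none of these is on the marker lists used here. Among the listed genes of other cell types and pathways, Mbp, a structural protein of myelin, was the most like Apoe (r = 0.70). With summed list levels, the r of Apoe was 0.68 for disease-associated microglial genes, 0.57 for oligodendrocyte precursors and 0.54 for oligodendrocytes. It was −0.08 for astrocytes, −0.70 for perivascular macrophages, −0.81 for neurons and −0.84 for dopaminergic neurons. A summed level follows its most abundant genes. The disease-associated sum was mostly Fth1, a ferritin gene that many cell types express, and had an r of −0.14 with the mean of the 7 genes. In the perivascular macrophage sum, Stab1 (72.8 CPM) and Cd74 (65.2 CPM) had the highest means. All points share their libraries and the scaling, and levels relative to a library's total are not independent of one another.

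Other microglial genes were read from lists. At 7 weeks, 16 of 17 general microglial and myeloid genes tested had a log2 fold above 0 after synuclein (median 0.87, none called), and 14 of 17 did without replicate 3 of the synuclein group (median 0.25). At 12 weeks 13 of the 17 were below 0 (median −0.37, none called). Their summed level was 180.3 to 550.2 CPM after synuclein at 7 weeks, against 139.3 to 205.2 CPM after saline, and 93.93 to 176.0 CPM after synuclein at 12 weeks, against 156.3 to 181.2 CPM after saline. Of 11 other identity genes tested, 6 were above 0 at 7 weeks (median 0.11) and 9 below 0 at 12 weeks (median −0.46), with none called. Their sum was mostly Sparc, at 926 to 2771 CPM, which endothelial cells also express.

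The disease-associated microglial state is described by a longer list of genes. At 7 weeks 18 of the 21 tested were above 0 after synuclein (median 0.30, none called), and 9 of 22 without replicate 3 of the synuclein group (median −0.04). At 12 weeks 15 of 21 were below 0 (median −0.17, none called). The list's level was mostly Fth1, the ferritin heavy chain that many cell types express, which averaged 5602 CPM over the 12 libraries. Fth1 was the 1 gene of the list called in any of the 6 comparisons, higher at 12 than at 7 weeks over both treatments (log2 fold 0.81 ± 0.16, adjusted p = 0.0292 in edgeR). Leaving out 1 library at a time, its adjusted p in edgeR ran from 0.00855 to 0.0920, and the call was lost without 7 of the 12 libraries (replicates 2 and 3 of saline and 1 and 2 of synuclein at 7 weeks, replicates 1 and 3 of saline and 1 of synuclein at 12 weeks).

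The ligands of these receptors were present in the same libraries. Csf1, a ligand of CSF1R, had 33.3 to 79.3 CPM over the 12 libraries, and Il34, its other ligand, 0.823 to 14.4 CPM. The log2 fold of Csf1 after synuclein was 0.01 ± 0.30 at 7 weeks and 0.45 ± 0.29 at 12 weeks, and that of Il34 was 0.50 ± 0.77 and −1.02 ± 0.77, all uncalled. Cx3cl1, the fractalkine gene, had 40.2 to 132 CPM, with a log2 fold of −0.53 ± 0.32 at 7 weeks and 0.44 ± 0.32 at 12 weeks. Of the 17 ligand and partner genes tested, 9 were above 0 at 7 weeks and 10 at 12 weeks, and none was called at either time. At 12 weeks 3 of the 17 had an unadjusted p under 0.05 in edgeR, beside 5.57% of all genes tested. All 3 were above 0 with an adjusted p of 0.887 in edgeR. They were Clu, which encodes the lipid carrier clusterin (log2 fold 1.18 ± 0.53), Abca1, which loads lipid onto APOE (0.75 ± 0.35), and Lrp1, a receptor of APOE (0.68 ± 0.32). Clu had 375 CPM in replicate 1 of synuclein at 12 weeks, a library that stood apart. Replicates 2 and 3 had 129 and 168 CPM, against 89.6, 126 and 81.8 CPM after saline.

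Markers of blood cells and of macrophages at the brain's borders were read beside them. Neutrophil and monocyte genes summed to 8.035 to 31.03 CPM and T cell and natural killer cell genes to 3.017 to 17.46 CPM, with 4 and 1 of them tested. Perivascular macrophage genes, from cells that also express Csf1r, Tyrobp and Apoe, summed to 260.1 to 421.4 CPM after synuclein at 7 weeks, against 198.7 to 294.2 CPM after saline. At 12 weeks they summed to 131.6 to 270.1 CPM after synuclein, against 136.4 to 237.5 CPM after saline. Of their 10 tested genes 8 were above 0 at 7 weeks (median 0.50) and 7 below 0 at 12 weeks (median −0.20), with none called. Their part in the values of Csf1r, Tyrobp and Ctss was not tested.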

How the data were processed

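RNA of sorted cells was measured in 12 libraries, grouped by the sample titles, and every table value was matched to a library by its column name. Reads were aligned with TopHat2 2.0.13 and Bowtie2 2.2.3 and quantified with Cufflinks 2.2.1, as the submitters' processing notes state. No build is named in what was read here, and coordinates are those of the deposited files, read as mm10 because the starts of Ctss, Trem2 and Cst7 equal those of GENCODE M21. The authors deposited an estimated count and an FPKM per gene and library, and the deposited estimated counts are scaled: 98.8% to 98.9% of them were whole multiples, within 0.02, of a step between 0.685 and 1.3 per library, and dividing by it gave the fragments reported. The deposited tables also held 84 further per-library columns, which were not used.

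After rounding to whole numbers, the estimated counts were tested with edgeR 4.0.16 in R 4.3.3 (filterByExpr, TMM, quasi-likelihood, 1 mean per group, all 12 libraries, 8 residual degrees of freedom), with Benjamini-Hochberg adjustment over 17380 genes and a threshold of 0.05. The common biological coefficient of variation was 46.6%. With 3 libraries per group, single folds had standard errors of 0.25 for Apoe and of up to 1.64 for Tmem119 within a time. Standard errors are the absolute fold over the square root of F. The 9 genes and 15 other gene lists were chosen with earlier results of these data known. The 9 genes are named in every comparison. Of other lists the text names called genes with the largest change or otherwise up to 4 genes with the highest mean level, any ligand or partner gene, and the genes with the most similar profile. Alternatives were DESeq2 1.42.0, limma 3.58.1 on log2 FPKM with 0.1 or 1 added and limma-voom, DESeq2 size factors, library totals only, recovered fragments, other filters, only the groups compared, a replicate block, and leaving out libraries. The procedure was also run on simulated counts with known folds. No library was made to stand apart in them, so that run cannot speak to folds that turn on a single library. One gene among those with the most similar profile is not reported here.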

Additional observations from a re-analysis of the deposited data

How the results depend on the processing

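Over 25 alternative settings none of the 9 microglial genes was called in any of the 6 comparisons (smallest adjusted p 0.111), and 52 of 1316 alternative folds had the opposite sign, for 18 of 54 folds. Leaving out 1 library at a time, the median over the 9 genes ran from 0.23 to 1.65 for synuclein against saline at 7 weeks, from −1.26 to −0.11 at 12 weeks, from −2.56 to −1.09 for the difference between the times and from −0.38 to 0.68 for time after saline. The median difference was −0.64 without replicates 1 and 2 of synuclein at 12 weeks together. It was −0.18 without replicate 3 of synuclein at 7 weeks and of saline at 12 weeks together, a setting chosen after seeing the data in which Cst7 did not pass the filter. On leaving out 1 library, the log2 fold of Tmem119 ran from −0.04 to 4.36 at 7 weeks, from −6.35 to 0.80 at 12 weeks, from −6.87 to 0.23 for the difference, from −1.46 to 4.03 for time after saline and from −3.24 to 1.40 for time over both treatments. P2ry12 stayed below 0 in these 3 comparisons, running from −6.93 to −1.15 over all settings at 12 weeks, from −8.06 to −1.68 for the difference and from −7.62 to −1.50 for time after synuclein. The widest values of Tmem119 and the lowest of P2ry12 come from a group left at 0 or nearly so, and such a fitted fold is no bound. Likewise, Cx3cr1 ran from −0.69 to 0.16 at 7 weeks, from −1.02 to 0.11 for the difference and from −0.74 to 0.39 for time after saline, and Csf1r from −0.38 to 0.45 for time after saline. Ctss ran from −1.28 to 0.09 for the difference, Tyrobp from −0.90 to 0.55 at 12 weeks, and Cst7 from −3.27 to 0.08 for time after synuclein and from −1.05 to 0.62 over both treatments. Apoe ran from −0.18 to 0.19 at 7 weeks, from −0.21 to 0.10 at 12 weeks and from −0.29 to 0.08 for the difference. Without the 12-week synuclein replicates 1 and 2, Tmem119 had 0.66 at 12 weeks, 0.14 for the difference, 0.32 for time after synuclein and 0.26 for time over both treatments. Without replicate 3 of synuclein at 7 weeks and of saline at 12 weeks together, Tmem119 had 0.82 at 12 weeks, 0.56 for the difference and −1.51 for time after saline. In the same setting Apoe had −0.18 at 7 weeks, 0.12 at 12 weeks and 0.30 for the difference, Cx3cr1 0.51 and Ctss 0.48 for the difference, Tyrobp −0.09 at 12 weeks, and P2ry12 −0.01 and Csf1r −0.42 for time after saline. Tyrobp at 12 weeks had −0.01 with library totals only, −0.38 in limma-voom and −0.41 and −0.34 in limma on log2 FPKM plus 0.1 and plus 1. With a filter of at least 1 CPM in 3 libraries Apoe at 7 weeks had −0.01. The causes were not tested. Without replicate 3 of synuclein at 7 weeks the highest library carried 17.6% of Ctss and 23.7% of Tyrobp.

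With the replicate block, Tyrobp at 12 weeks had a log2 fold of −0.34, and the block gave 34 called genes for time after saline and 246 for time over both treatments. Over all genes tested, same-numbered replicates of different groups varied little together, with 1 of 18 correlations above 0.1 (r from −0.06 to 0.11). A correlation over all genes cannot exclude a factor that same-numbered libraries share in the microglial genes.

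Counts of called genes moved more. DESeq2 called 12 genes at 12 weeks, 173 for time after saline, 59 for time after synuclein and 449 over both treatments. Limma on log2 FPKM plus 0.1 called 2 genes at 12 weeks, 1 for the difference, 2 for time after saline and 1 over both treatments, and with 1 added it called 1, 1, 1 and 5. For time after saline there were 7 calls with no low-count filter, 49 with only the groups compared and 14 without replicates 1 and 2 of synuclein at 12 weeks. Leaving out 1 library gave 0 to 1 calls at 7 weeks, 0 to 1 at 12 weeks, 0 to 9 for time after saline and 0 to 2 for time after synuclein. Over both treatments it gave 24 to 214 calls against 145: 24 without replicate 3 and 32 without replicate 2 of saline at 7 weeks, 28 and 38 without replicates 1 and 2 of synuclein at 7 weeks, 27 and 29 without replicates 1 and 3 of saline at 12 weeks, and 38 without replicate 1 of synuclein at 12 weeks. There were 0 calls over both treatments without replicates 1 and 2 of synuclein at 12 weeks, and 0 without replicate 3 of synuclein at 7 weeks and of saline at 12 weeks together. Depth limits P2ry12, Tmem119, Trem2 and Cst7, with 116 to 169 fragments each over all libraries, where a change of a few fragments decides a library's value.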

Other observations

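P2ry13, the purinergic receptor gene next to P2ry12 and in the same locus of the deposited files, was looked at after its values had been seen. It had 4.05, 4.01 and 2.86 CPM after synuclein at 7 weeks, against 2, 1.44 and 9.76 CPM after saline. At 12 weeks it had 0, 0.274 and 0.283 CPM after synuclein, against 0.580, 2.28 and 7.18 CPM after saline. The 3 synuclein libraries at 12 weeks held at most 1 fragment of it each and lay below all saline libraries of that time, as did 6.67% of all genes tested. Its log2 fold at 12 weeks was −3.93 ± 1.28 (adjusted p = 0.887 in edgeR), and the difference between the times was −3.66 ± 1.61 (adjusted p = 0.952 in edgeR). Its reads are as uncertain as those of P2ry12, because the files assign 1 locus to 8 gene names.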
